A study of Mus musculus with 12 samples.

Results

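Dividing cells copy their DNA in S phase and part the copies in mitosis, and each step needs proteins whose genes are switched on only around that time. The 40 genes described here are a list of such genes, 19 for the copying of DNA and 21 for mitosis. They were chosen by symbol: a gene belongs to the list if its name in the deposited expression table of 35599 genes equals a listed name, and all 40 were found. The values of the genes were not part of that rule, but the list was chosen with earlier results of these data known.

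Whole lung was sequenced from 3 groups of mice with 4 libraries each. ND-RHL lungs came from mice that were challenged with bleomycin and lipopolysaccharide (LPS) and then given ND-RHL, liposomes that carry nintedanib and dexamethasone together and bear hyaluronic acid and RGD peptides on their surface. AE-PF lungs came from mice with the same bleomycin and LPS challenge, a model of an acute exacerbation of pulmonary fibrosis, and no treatment, and control lungs came from mice given saline. The lungs were taken at the end point of the model, and polyadenylated RNA was sequenced. Bleomycin is a DNA-breaking drug that scars the lung, LPS is a bacterial cell wall component that adds acute inflammation, nintedanib inhibits receptor tyrosine kinases of growth factors and dexamethasone is a glucocorticoid. Strain, sex, age, doses and times are not in the labels, and no group received the empty carrier or a lone drug, so the contributions of the 2 drugs and of the carrier cannot be told apart.

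Entry into S phase depends on E2F transcription factors and cyclin E, after which the MCM ring, loaded on origins by Cdc6 and Cdt1, is activated by Cdc45 and the GINS complex and unwinds DNA. Entry into mitosis depends on Cdk1 bound to cyclins A and B, and exit depends on the anaphase-promoting complex, which marks the cyclins for destruction. In healthy adult lung few cells divide, while after injury epithelial, endothelial, mesenchymal and immune cells can re-enter the cycle. The same transcripts are therefore used as markers of dividing cells of any type, and in RNA of whole tissue more dividing cells and more RNA per dividing cell cannot be told apart.

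The unit is FPKM, fragments scaled to gene length and to the fragments counted in the library. Comparison between libraries is limited by the FPKM totals, which differed between groups. They were 291267 to 304407 in ND-RHL, 273123 to 279287 in AE-PF and 298097 to 311852 in saline libraries. Results with equal totals are therefore given at the end. Depth was 16152379 to 21667129 fragments per library. The lung identity of the samples showed in markers of alveolar type 2 cells, whose summed FPKM was 9949 to 17816 in ND-RHL, 1560 to 5160 in AE-PF and 13448 to 16977 in saline libraries. Transcripts of other tissues stood out in 2 libraries: markers of stratified squamous epithelium summed to 6183 FPKM in ND-RHL library 4 and 1868 in AE-PF library 2, against at most 12.7 in the other ND-RHL, 1.00 in the other AE-PF and 8.18 in the saline libraries, and skeletal muscle markers summed to 1983 and 814 in the same 2 libraries. In the other ND-RHL and AE-PF libraries the muscle markers summed to at most 25.8 and 5.17. Saline library 3 had 149.7, against at most 19.8 in the other saline libraries. Counts below are also given without ND-RHL library 4 and AE-PF library 2, with saline library 3 kept. Whether each library came from its own mouse is not stated, so the p-values describe the spread among these 12 samples, which could be technical in part.

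The promoters of the genes show the elements through which their transcription is known to be tied to the cycle, and are printed here because the mitosis and the S-phase genes differ in them. RefSeq promoters (assembly GRCm38.p6, 250 bases before to 50 bases after the transcription start, the first one listed for each gene) were found for 33 of the 40 genes, 17 of mitosis and 16 of S phase. They were searched on both strands for the CCAAT box (letters CCAAT), bound by the factor NF-Y, for the cell cycle homology region or CHR (TTTGAA or TTCGAA), bound by the DREAM and MuvB complexes, for an E2F motif (TTTCCCGC, TTTGGCGC, TTTCGCGC or TTTGCCGC) and for a GC box (GGGCGG). A match in letters describes the sequence and does not show that a factor binds there.

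The promoters of 5 mitosis genes are shown 5′ to 3′ with CCAAT boxes and CHRs in capitals, on either strand, so that a CCAAT box on the other strand reads ATTGG and a CHR reads TTCAAA. Cdk1 is shown at chr10:69352913-69353032, Top2a at chr11:99024190-99024339, Cdc20 at chr4:118437344-118437423 and Mki67 at chr7:135716460-135716579, each on the minus strand, and Kif11 at chr19:37376302-37376381 on the plus strand.
Cdk1: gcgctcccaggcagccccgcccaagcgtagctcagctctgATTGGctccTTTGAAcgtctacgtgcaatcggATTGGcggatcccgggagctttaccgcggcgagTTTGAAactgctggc
Top2a: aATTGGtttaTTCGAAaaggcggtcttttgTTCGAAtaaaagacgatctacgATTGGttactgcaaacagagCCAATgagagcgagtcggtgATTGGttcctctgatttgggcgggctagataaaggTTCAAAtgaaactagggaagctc
Cdc20: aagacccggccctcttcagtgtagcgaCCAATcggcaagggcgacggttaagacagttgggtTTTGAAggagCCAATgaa
Mki67: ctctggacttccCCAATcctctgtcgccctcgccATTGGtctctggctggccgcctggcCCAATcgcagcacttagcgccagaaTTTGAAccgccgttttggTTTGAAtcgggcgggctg
Kif11: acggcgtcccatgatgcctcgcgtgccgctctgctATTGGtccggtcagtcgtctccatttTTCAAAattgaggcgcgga
In each of them a CHR stands downstream of at least 1 CCAAT box, the order that is known from promoters silenced in resting cells and opened in late phases of the cycle.

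The promoters of 3 MCM genes are shown for contrast, with E2F motifs in capitals: Mcm5 at chr8:75109349-75109388 on the plus strand, Mcm6 at chr1:128359736-128359825 and Mcm7 at chr5:138172024-138172063 on the minus strand. In Mcm5 and in the upstream site of Mcm6 the motif overlaps a second match on the other strand, which makes a run of 12 capitals. CCAAT boxes and CHRs are left in lower case here: the bases of Mcm6 hold a CCAAT box (attgg) and those of Mcm7 a CHR (ttcgaa). Only a part of each promoter is printed. Outside it, all 3 promoters hold CCAAT boxes, and Mcm7 holds another E2F motif.
Mcm5: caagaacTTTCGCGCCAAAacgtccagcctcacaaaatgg
Mcm6: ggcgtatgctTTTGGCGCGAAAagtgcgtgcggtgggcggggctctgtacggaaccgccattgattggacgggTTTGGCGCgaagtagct
Mcm7: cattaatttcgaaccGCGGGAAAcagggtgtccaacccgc
Such sites bind E2F factors with the retinoblastoma family, which hold S-phase genes silent until late G1.

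Of the 17 mitosis promoters, 15 held a CCAAT box, 13 a CHR and 13 both, while 1 (Cdk1) held an E2F motif, which lies upstream of the bases printed. Of the 16 S-phase promoters, 10 held a CCAAT box, 3 a CHR (Mcm2, Mcm7 and Cdc45) and 6 an E2F motif (Cdc6, Cdt1, Mcm3, Mcm5, Mcm6 and Mcm7). Among the promoters of all 27025 genes the shares were 37.9% with a CCAAT box, 19.4% with a CHR, 7.70% with both and 2.32% with an E2F motif. Among the 10777 promoters of genes tested below they were 38.1%, 13.9%, 5.64% and 3.90%. A GC box stood in 14 of 17 and 13 of 16 promoters, against 35.9% of all promoters and 62.5% of those of tested genes.

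**Figure D1:**
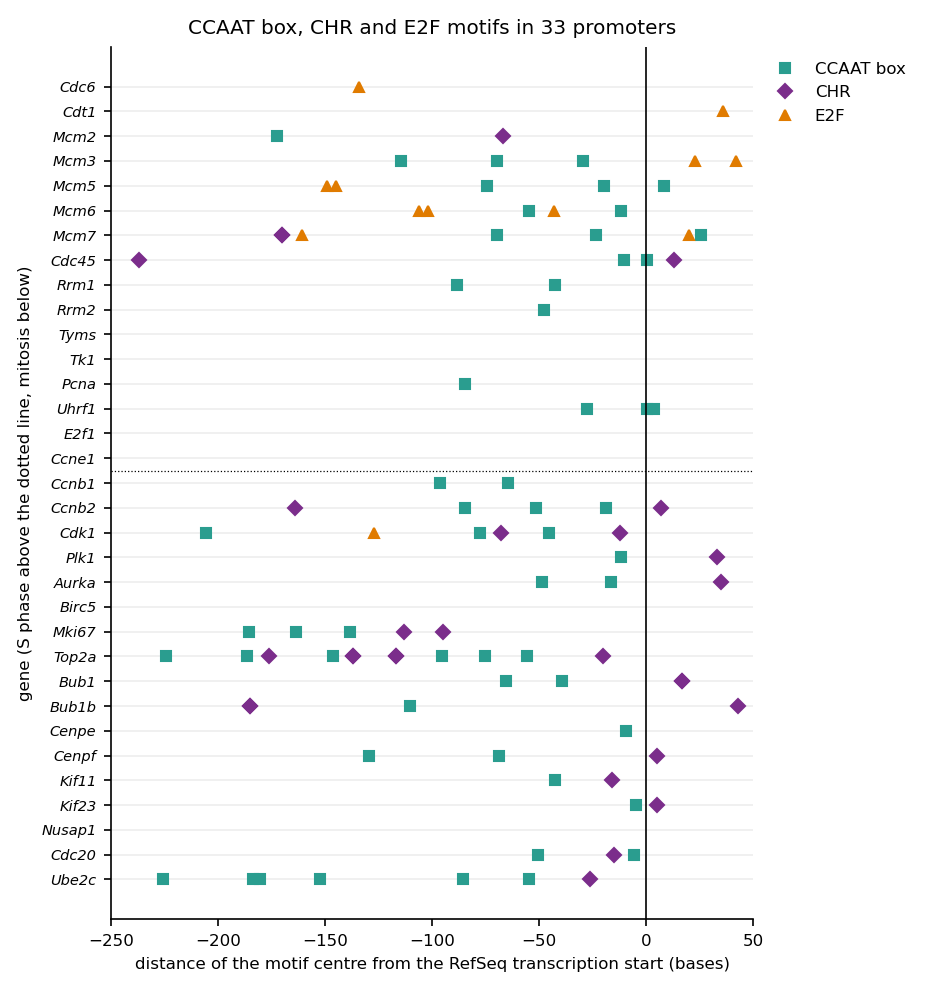
Position of CCAAT boxes (squares), CHRs (diamonds) and E2F motifs (triangles) in the RefSeq promoters of 33 cell cycle genes, as the distance of the motif centre from the transcription start in bases. Diamonds stand mostly in the rows of mitosis genes below the dotted line, where 13 of 17 promoters hold a CHR, and triangles mostly in the rows of S-phase genes above it, where 6 of 16 hold an E2F motif.

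In saline lung most of these genes were low. Pcna, the clamp that holds DNA polymerase on its template, was the most abundant with 26.7, 25.7, 27.1 and 27.6 FPKM in saline libraries 1 to 4. Helicase genes followed, with 9.99 ± 0.371 FPKM for Mcm4, 6.59 ± 0.365 for Mcm6, 6.08 ± 0.244 for Mcm7 and 5.92 ± 0.181 for Mcm3 (mean ± SD, n = 4). Of the mitosis genes Cdc20 was highest in saline lung with 2.71 ± 0.518, Mki67 had 2.14 ± 0.168 and Cenpf was lowest with 0.233 ± 0.0364. Low levels still rested on many fragments in long genes, for example 50 to 95 fragments of Cenpf and 37 to 70 of Cdk1 per saline library, while Gins2 had 13 to 32.

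Tests were made with limma on log2(FPKM + 1), which understates the change of low genes, over the 15164 genes that reached 1 FPKM in 4 or more of the 12 libraries. Of the 40 genes, 39 passed this filter. Cenpf, which reached 1 FPKM in 3 libraries, did not. Of the 39, 26 reached 1 FPKM in every saline library, 4 in some and 9 in none, so that these 9 passed through the challenged groups, where they were high. The 9 were Ccnb1, Cdk1, Birc5, Cenpe, Kif11, Kif20a, Ccne1, Cdc6 and Gins2, and their higher calls against saline lung add no support. The 4 were Aurkb and Cdc45, at 1 FPKM in 1 saline library, and Tpx2 and Ube2c, in 2. These 4 also needed challenged libraries to pass, so their higher calls against saline lung likewise add no support. Cdk1 and Cenpe reached 1 FPKM in 3 ND-RHL libraries and Cdc6 in 2, so they needed AE-PF libraries to pass. Lower calls of Cdk1 and Cenpe against AE-PF lung therefore add no support either. Gins2 passed through AE-PF lung alone, with 1 FPKM reached in 4 AE-PF, 0 ND-RHL and 0 saline libraries. It had to be high there, so nothing is supported by its calls in either comparison with AE-PF lung, and it was not tested when an AE-PF library was left out.

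**Figure D2:**
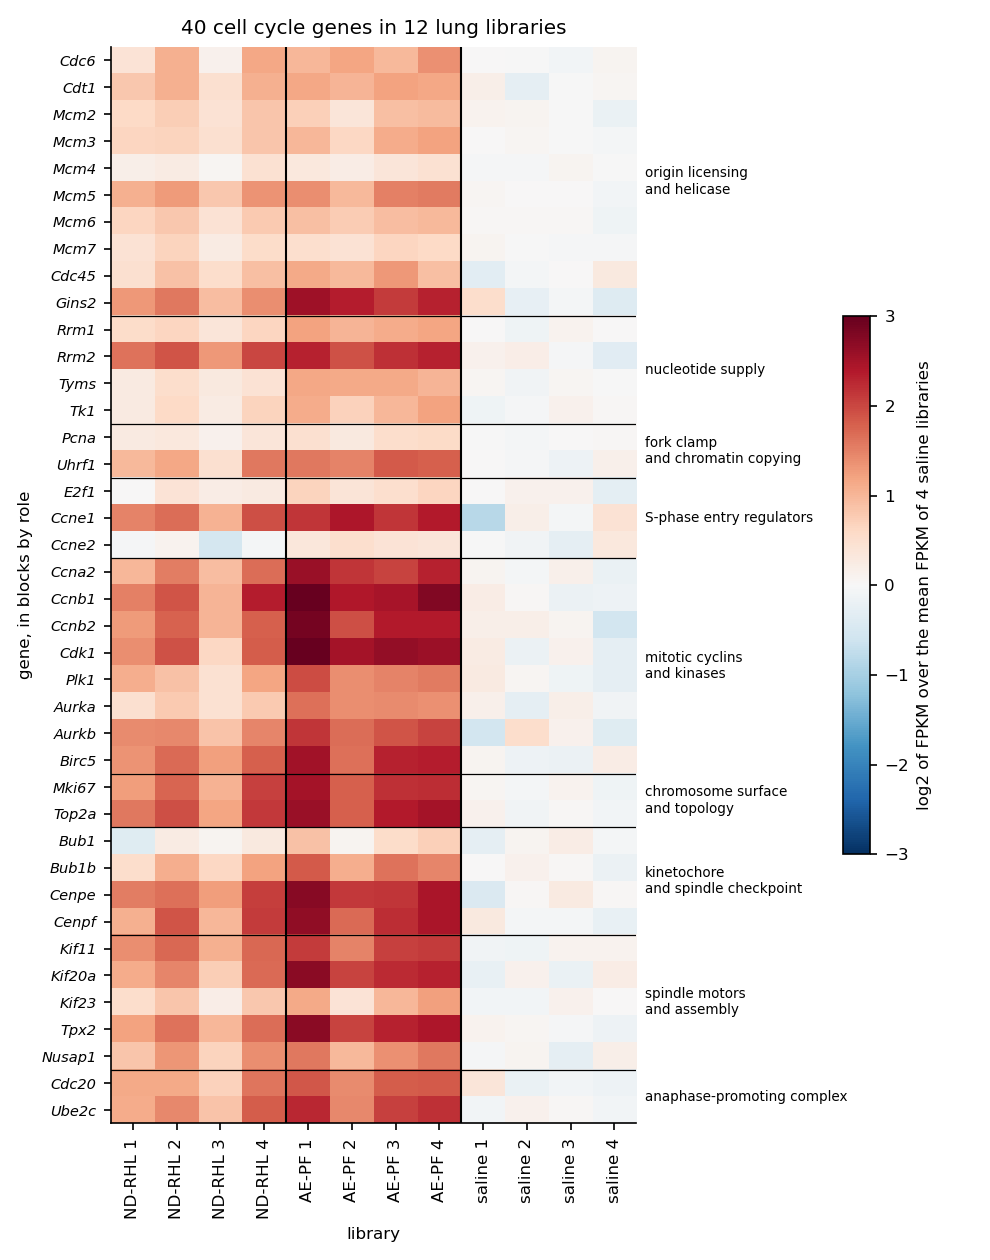
Heat map of 40 cell cycle genes (rows, in blocks by role) in 12 libraries (columns), coloured by log2 of the FPKM over the mean of the 4 saline libraries. AE-PF columns have the highest mean in every row, ND-RHL columns are paler with library 3 the palest in 35 of 40 rows, and the MCM rows differ little between AE-PF and ND-RHL.

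The first comparison asked what the bleomycin and LPS challenge changed. The challenged lungs had more of the cell cycle transcripts throughout: all 39 tested genes rose and 0 fell, and in 39 of the 40, Cenpf included, every AE-PF library was above every saline library. Ratios of means lay between 1.27 (Mcm4) and 6.59 (Ccnb1). The median ratio was 4.56 over the 21 mitosis genes and 2.11 over the 19 S-phase genes, against 0.982 over all genes tested. This challenge changed much of the transcriptome: 56.6% of the 15164 genes tested passed, 26.4% higher and 30.2% lower, and in 25.3% every AE-PF library was above every saline library, while in 29% every one was below. No cell cycle gene was lower at an unadjusted p under 0.05 by limma either, nor at an adjusted p under 0.05 by limma-voom on recovered fragments. All 26 genes that reached 1 FPKM in every saline library were among those that rose.

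All 8 mitotic cyclins and kinases rose, with a median ratio of 4.81. Ccnb1, the B-type cyclin that turns on Cdk1, had 5.28, 3.20, 3.36 and 4.18 FPKM in AE-PF libraries 1 to 4, against 0.711, 0.627, 0.541 and 0.551 in saline libraries. The groups were far apart, with the lowest AE-PF library at several times the highest saline library, and library 1 was the highest of the AE-PF libraries. The mean ratio was 6.59, and the log2 change on the log2(FPKM + 1) scale was 1.62 ± 0.17 (SE; adjusted p = 2.21e-05, limma). Cdk1, the kinase that drives entry into mitosis, averaged 3.60 ± 0.661 in AE-PF and 0.552 ± 0.0922 FPKM in saline lung (6.52-fold; adjusted p = 1.26e-05). Ccnb2, the second B-type cyclin, reached 10.4 ± 2.79 in AE-PF lung against 1.93 ± 0.412 in saline lung, and Ccna2, the cyclin that serves both S phase and mitosis, 5.69 ± 1.03 against 1.17 ± 0.126. The mitotic kinase genes Plk1, Aurka and Aurkb stood at 3.06, 2.77 and 3.85 times their saline means, and Birc5, which encodes the Aurora B partner survivin, at 4.75 times. None of these 8 genes had overlapping groups. Ccnb1, Cdk1 and Birc5 passed the filter only through the challenged groups. Aurkb, which reached 1 FPKM in 1 saline library, needed challenged libraries to pass as well.

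Mki67 and Top2a, which are widely used to count dividing cells, rose likewise. Mki67, which encodes the Ki-67 protein that coats mitotic chromosomes, had 12.0, 7.40, 9.73 and 9.87 FPKM in AE-PF libraries 1 to 4 and 2.25, 2.05, 2.31 and 1.95 in saline libraries (4.56-fold; log2 change 1.76 ± 0.18, adjusted p = 1.55e-05, limma). Every AE-PF library was thus at least at 7.40 FPKM and no saline library above 2.31. Top2a, the topoisomerase that untangles sister chromatids, averaged 8.74 ± 1.91 and 1.72 ± 0.137 FPKM in AE-PF and saline lung (5.07-fold).

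Genes of the kinetochore, the spindle and the anaphase-promoting complex followed. Cenpe, a kinetochore motor, Tpx2, an activator of Aurora A on the spindle, and Kif20a, a motor of the central spindle, stood at 5.21, 5.22 and 5.08 times the saline mean. Kif11, the motor that separates the spindle poles, reached 3.88 times, Bub1b of the spindle checkpoint 2.89, the spindle gene Nusap1 2.62 and Kif23, a central spindle motor, 1.97 times. Ube2c and Cdc20, the ubiquitin-conjugating enzyme and the activator of the anaphase-promoting complex, stood at 4.06 and 3.35 times. Bub1, the checkpoint kinase, was the exception in its range: its libraries had 2.62, 1.50, 2.08 and 2.33 FPKM in AE-PF and 1.18, 1.50, 1.65 and 1.36 in saline lung, and AE-PF library 2 lay within the saline range. Its call (adjusted p = 0.0271, limma) was lost without AE-PF library 1 (0.0833) or 4 (0.0667) and without saline library 1 (0.0758) or 4 (0.0573). Cenpf, not tested, had 1.48, 0.757, 1.08 and 1.27 FPKM in AE-PF and 0.284, 0.224, 0.225 and 0.198 in saline libraries. Without any filter on low values, where 12.5% of 35599 genes were higher, its adjusted p was 0.000888 (limma).

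Among the S-phase genes ratios ranged more widely. Rrm2, the regulated subunit of ribonucleotide reductase, which makes deoxynucleotides, had 8.08, 6.11, 7.42 and 8.08 FPKM in AE-PF libraries against 1.78, 1.87, 1.59 and 1.30 in saline libraries (4.53-fold; log2 change 1.67 ± 0.13, adjusted p = 3.38e-06, limma). Its partner Rrm1 and the thymidylate genes Tyms and Tk1 stood at 2.19, 2.16 and 2.02 times the saline mean. Of the 10 licensing and helicase genes all rose, but the other 9 beside Gins2 by at most 2.61-fold: Mcm5 reached 7.17 ± 1.22 against 2.75 ± 0.115 FPKM, Mcm3 11.8 ± 1.95 against 5.92 ± 0.181 and Mcm4 12.7 ± 0.802 against 9.99 ± 0.371 in AE-PF and saline lung. Gins2, of the GINS complex, stood at 5.04 times its saline mean (1.27 ± 0.157 against 0.252 ± 0.0751 FPKM), but 2758 bases of its exons overlap those of Gse1 on the other strand, and whether the counting used strand is not stated. The loading factors Cdc6 and Cdt1 both stood at 2.20 times, and Cdc45 of the active helicase at 2.11 times.

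Of the entry regulators, the cyclin E genes differed. Ccne1 had 2.49, 2.99, 2.49 and 2.93 FPKM in AE-PF and 0.312, 0.628, 0.540 and 0.758 in saline libraries (4.87-fold; adjusted p = 1.21e-05, limma), while Ccne2 had 1.92, 2.17, 2.01 and 1.94 and 1.52, 1.40, 1.26 and 1.89 (1.32-fold; adjusted p = 0.0359). The lowest AE-PF library and the highest saline library of Ccne2 lay next to each other, and its call was lost without AE-PF library 1 (0.0547), 2 (0.0812), 3 (0.0639) or 4 (0.0550) and without saline library 1 (0.0656), 2 (0.0845) or 3 (0.1003). E2f1, the transcription factor of S-phase entry, stood at 1.47 times its saline mean and Pcna at 1.38 times. Uhrf1, which helps to copy DNA methylation behind the fork, reached 3.21 times.

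**Figure D3:**
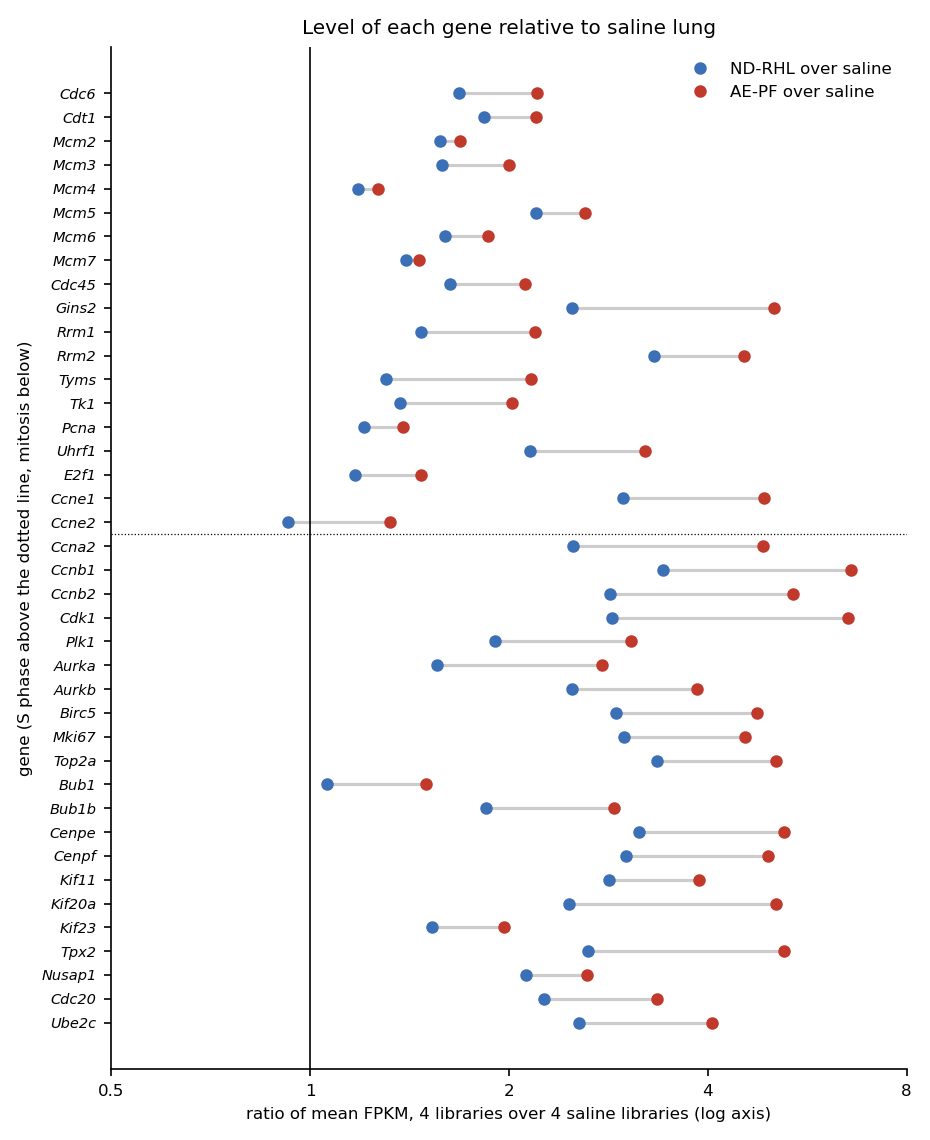
Ratio of mean FPKM to the saline mean for each gene (log axis), for ND-RHL (blue) and AE-PF (red), with S-phase genes above and mitosis genes below the dotted line. Every red point lies right of 1, from 1.27 for Mcm4 to 6.59 for Ccnb1, and each blue point lies left of its red partner, closest for Mcm7, Mcm2 and Mcm4.

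Within AE-PF lung the genes shared an order of libraries. AE-PF library 2 was the lowest of the 4 for 32 of the 40 genes, 19 of 21 in mitosis and 13 of 19 in S phase. AE-PF library 1 was the highest for 20 of 21 mitosis genes but 5 of 19 S-phase genes, and library 4 for 8 S-phase genes. The summed FPKM of the mitosis genes was 119.8, 75.4, 95.8 and 101.3 in AE-PF libraries 1 to 4, against 26.4, 25.2, 25.6 and 23.0 in saline libraries. That of the S-phase genes was 138, 122, 142 and 148 in AE-PF and 79.3, 77.5, 79.9 and 78.2 in saline libraries. AE-PF library 2 is the one with squamous epithelium and skeletal muscle. When it was left out together with ND-RHL library 4, 37 genes rose in AE-PF lung, Ccne2 lost its call (adjusted p = 0.0872, limma) and Gins2 was not tested.

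Markers of several cell types moved with the challenge, where 26.4% of all genes tested rose and 30.2% fell. Of 12 markers of recruited macrophages all 12 rose, with a summed FPKM of 3207 to 5116 in AE-PF against 448 to 547 in saline libraries, and of 10 fibroblast markers 7 rose and 1 fell (1224 to 2064 against 425 to 499). Of 8 transitional epithelial markers 3 rose. None of 10 T cell markers (12.7 to 45.8 against 16.2 to 20.7) and none of 8 B cell markers passed (15.3 to 60.1 against 45.1 to 55.3). Of 7 tested germinal centre and plasma cell markers 2 rose and 1 fell, and of 10 alveolar macrophage markers 1 rose and 5 fell. Thymus, bone marrow and red cell precursors also divide: of 8 thymocyte markers 2 were tested, of which 1 fell, and Rag2 and Ptcra were at 0 in every AE-PF library, of 5 tested markers of the neutrophil lineage and bone marrow precursors 4 fell and of 6 tested red cell precursor markers 4 fell. All 8 endothelial, all 8 alveolar type 2 and all 8 ciliated and club cell markers fell, as did all 8 of heart muscle, 6 of 7 of fat cells and 3 of 7 of natural killer cells. The part of any cell type in the rise of the cell cycle genes was not tested.

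The second comparison asked what ND-RHL treatment changed in challenged lung. Mitosis genes were mostly lower after ND-RHL treatment, while most MCM and licensing genes did not pass. Of the 39 tested genes, 27 fell and 0 rose, and 12 did not pass. Of the 26 genes that reached 1 FPKM in every saline library 17 fell and 9 did not pass. Cdk1, Cenpe and Gins2 are among the 27, but they needed AE-PF libraries to pass the filter, so their calls add no support. Of all 15164 genes tested 41.8% passed, 17.4% lower and 24.3% higher. The fall covered 16 of 20 tested mitosis genes and 11 of 19 S-phase genes. In 17 of the 40 genes, Cdk1, Cenpe and Gins2 included, every ND-RHL library was below every AE-PF library, against 15.6% of all genes. Of the 26 genes that reached 1 FPKM in every saline library this held for 8. Ratios of means lay between 0.439 (Cdk1) and 0.957 (Mcm7), with a median of 0.624 over mitosis genes and 0.771 over S-phase genes, against 1.05 over all genes tested. None of the 39 genes rose at an unadjusted p under 0.05 by limma, nor at an adjusted p under 0.05 by limma-voom. This comparison shares the AE-PF libraries with the one above, so the changes of a gene in both are not independent.

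All 8 mitotic cyclins and kinases fell. Cdk1 had 1.46, 2.07, 0.846 and 1.95 FPKM in ND-RHL libraries 1 to 4 and 4.57, 3.12, 3.43 and 3.28 in AE-PF libraries. Its groups did not overlap, and ND-RHL library 3 was the lowest. The ND-RHL mean was 0.439 times the AE-PF mean (log2 change -0.85 ± 0.15, adjusted p = 0.00145, limma). Cdk1 needed AE-PF libraries to pass the filter, so this call adds no support. Ccna2 averaged 2.93 ± 0.767 in ND-RHL and 5.69 ± 1.03 FPKM in AE-PF lung (0.514 times; adjusted p = 0.00145), and Ccnb1 2.08 ± 0.791 and 4.01 ± 0.951 (0.518 times; adjusted p = 0.00734). Aurka had 1.93, 2.37, 1.91 and 2.41 FPKM in ND-RHL and 4.39, 3.67, 3.71 and 3.60 in AE-PF libraries (0.561 times; adjusted p = 0.000358). Ccnb2, Plk1, Aurkb and Birc5 stood at 0.528, 0.624, 0.647 and 0.610 times the AE-PF mean. Birc5 was the only one of the 8 whose groups overlapped, through AE-PF library 2.

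Mki67 and Top2a fell too, with groups that overlapped. Mki67 had 5.13, 7.20, 4.40 and 8.88 FPKM in ND-RHL libraries 1 to 4, against 12.0, 7.40, 9.73 and 9.87 in AE-PF libraries, so that ND-RHL library 4 lay above AE-PF library 2 (0.656 times; log2 change -0.56 ± 0.18, adjusted p = 0.0263, limma). These are the 2 libraries with squamous epithelium and skeletal muscle. Top2a averaged 5.78 ± 1.59 and 8.74 ± 1.91 in ND-RHL and AE-PF lung (0.662 times; adjusted p = 0.033). Cdc20 and Ube2c of the anaphase-promoting complex fell to 0.673 and 0.630 times their AE-PF means (adjusted p = 0.021 and 0.0243).

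Kinetochore and spindle genes were divided. Tpx2 and Kif20a fell without overlap of the groups, with 2.36, 3.15, 2.04 and 3.28 FPKM in ND-RHL and 6.68, 4.18, 5.05 and 5.51 in AE-PF libraries for Tpx2 (0.506 times; adjusted p = 0.00102) and a ratio of 0.485 for Kif20a (adjusted p = 0.00192). Cenpe and Bub1b also fell (0.604 and 0.640 times). Cenpe needed AE-PF libraries to pass the filter, so its call adds no support. Kif11, Kif23, Nusap1 and Bub1 did not pass, with ratios of 0.731, 0.778, 0.810 and 0.709 and adjusted p of 0.0527, 0.149, 0.19 and 0.0631. In each of these 4 genes the lowest AE-PF value was that of library 2, and without AE-PF library 2 Kif11 (0.00974), Kif23 (0.0184) and Bub1 (0.0140) passed as lower. Kif11 also passed without ND-RHL library 2 (0.0434) or 4 (0.0369). Cenpf had 0.488, 0.858, 0.461 and 0.991 FPKM in ND-RHL and 1.48, 0.757, 1.08 and 1.27 in AE-PF libraries, with overlap. With no filter on low values, where 7.29% of genes were lower and 9.62% higher, its adjusted p was 0.101 (limma).

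In S phase the nucleotide supply and the entry regulators fell and the licensing genes mostly did not pass. All 4 nucleotide genes fell: Tyms had 1.34, 1.62, 1.38 and 1.50 FPKM in ND-RHL and 2.50, 2.44, 2.46 and 2.29 in AE-PF libraries (0.603 times; log2 change -0.48 ± 0.06, adjusted p = 0.00018, limma), and Rrm1, Tk1 and Rrm2 stood at 0.672, 0.678 and 0.730 times. The Tyms groups were far apart compared with the spread within them. Ccne1, Ccne2 and E2f1 fell to 0.611, 0.701 and 0.795 times their AE-PF means, and Uhrf1 and Pcna to 0.670 and 0.874 times. Ccne2 lost this call when the 2 libraries with the most skeletal muscle RNA were both left out (adjusted p = 0.0551, limma), and Uhrf1 when ND-RHL and AE-PF libraries were fitted alone (0.0530).

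Of the 10 licensing and helicase genes 2 were called lower, Mcm3 (0.791 times; adjusted p = 0.0364, limma) and Gins2, which had 0.617, 0.756, 0.478 and 0.659 FPKM in ND-RHL and 1.46, 1.30, 1.08 and 1.24 in AE-PF libraries but was tested only because it was high in AE-PF lung. Mcm5 had 5.72, 6.64, 4.83 and 7.05 FPKM in ND-RHL and 7.25, 5.43, 7.86 and 8.14 in AE-PF libraries, and 3 of the 4 ND-RHL libraries lay above the lowest AE-PF library (log2 change -0.21 ± 0.12, adjusted p = 0.183). Mcm2 and Mcm7 had log2 changes of -0.07 ± 0.11 and -0.06 ± 0.08, within 1 SE of 0 (adjusted p = 0.613 and 0.538). Mcm4, Cdc6, Cdt1 and Cdc45 did not pass either, with ratios of 0.933, 0.763, 0.834 and 0.771, and Mcm6 (0.861 times) missed the threshold at an adjusted p of 0.05003. Mcm4, Mcm6, Cdt1 and Cdc45 passed as lower with equal FPKM totals, and Mcm5 without AE-PF library 2 (0.0283). Mcm6 also passed without AE-PF library 2 (0.0359) or ND-RHL library 2 (0.0303) or 4 (0.0348), and Mcm4 (0.0472) and Cdc45 (0.0458) without ND-RHL library 4. A difference between the MCM genes and the mitosis genes in their response was not tested.

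**Figure D4:**
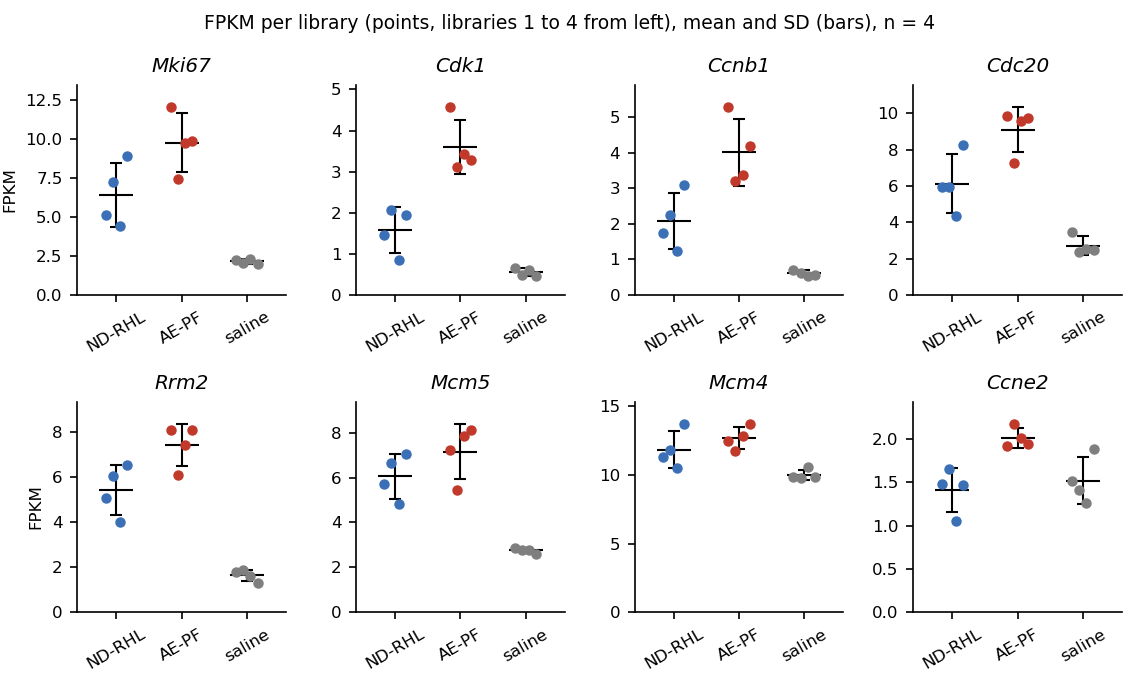
FPKM in each library (points, libraries 1 to 4 from left to right) with the mean and SD (bars, n = 4) for 4 mitosis genes (top) and 4 S-phase genes (bottom), in ND-RHL (blue), AE-PF (red) and saline (grey) lung. Cdk1 and Ccnb1 separate the 3 groups without overlap, ND-RHL library 4 and AE-PF library 2 meet in Mki67, Cdc20 and Rrm2, and ND-RHL and AE-PF points intermix in Mcm5 and Mcm4.

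The lower calls rested in part on single libraries. Of the 27 genes that fell, 26 were tested in every fit that left out 1 library, all but Gins2, and 18 of these kept the call each time. Without AE-PF library 1 or ND-RHL library 3, the calls of Mki67, Top2a, Cdc20, Ube2c, Rrm2, Mcm3, Pcna and E2f1 were lost (adjusted p up to 0.0955 and 0.107), and without AE-PF library 4 or ND-RHL library 1 the same genes apart from Cdc20 (up to 0.0981 and 0.0920). Without AE-PF library 3, Top2a, Rrm2, Mcm3 and Pcna did not pass (up to 0.0868). Mcm3 did not pass without ND-RHL library 2 (0.0631), nor Pcna without saline library 1 (0.0525) or 3 (0.0508). The count of genes that fell was 18 without AE-PF library 1 and 31 without AE-PF library 2 or ND-RHL library 4. Without the 2 libraries that hold squamous epithelium and skeletal muscle it was 32: Ccne2 lost its call, Gins2 was not tested, and Bub1, Kif11, Kif23, Nusap1, Mcm4, Mcm5 and Mcm6 passed.

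ND-RHL lungs varied along a shared order too. ND-RHL library 3 was the lowest of the 4 for 35 of the 40 genes, library 4 the highest for 31 and library 2 for the other 9. The summed FPKM of the mitosis genes was 52.7, 66.9, 43.6 and 76.1 in ND-RHL libraries 1 to 4, and that of the S-phase genes 109, 120.4, 97.2 and 126. Of the mitosis sums the highest ND-RHL library (76.1) stood next to the lowest AE-PF library (75.4).

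Cell type markers moved with treatment as well, where 24.3% of all genes tested rose and 17.4% fell. Of 12 recruited macrophage markers 10 fell and 1 rose (summed FPKM 549 to 1603 in ND-RHL against 3207 to 5116 in AE-PF libraries), of 10 fibroblast markers 7 fell and 1 rose (478 to 625 against 1224 to 2064) and of 8 transitional epithelial markers 3 fell. ND-RHL library 3, the lowest in most cell cycle genes, had the lowest macrophage and fibroblast sums of its group. AE-PF library 2, the lowest of its group in most cell cycle genes, had the highest of these sums in its group. That library also holds squamous epithelium and skeletal muscle. Lymphocyte markers went the other way: 4 of 10 T cell markers (42.4 to 88.3 against 12.7 to 45.8), 8 of 8 B cell markers (84.3 to 173 against 15.3 to 60.1) and 7 of 7 natural killer cell markers rose. So did 8 of 8 endothelial, 8 of 8 alveolar type 2 and 8 of 8 ciliated and club cell markers, 6 of 8 of heart muscle, 6 of 7 of fat cells, 6 of 6 tested of red cell precursors, 3 of 10 of alveolar macrophages, 2 of 5 tested of the neutrophil lineage and 1 of 2 tested of thymocytes. Of 7 tested germinal centre and plasma cell markers 1 rose and 1 fell. The part of these shifts in the fall of the cell cycle genes was not tested.

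**Figure D5:**
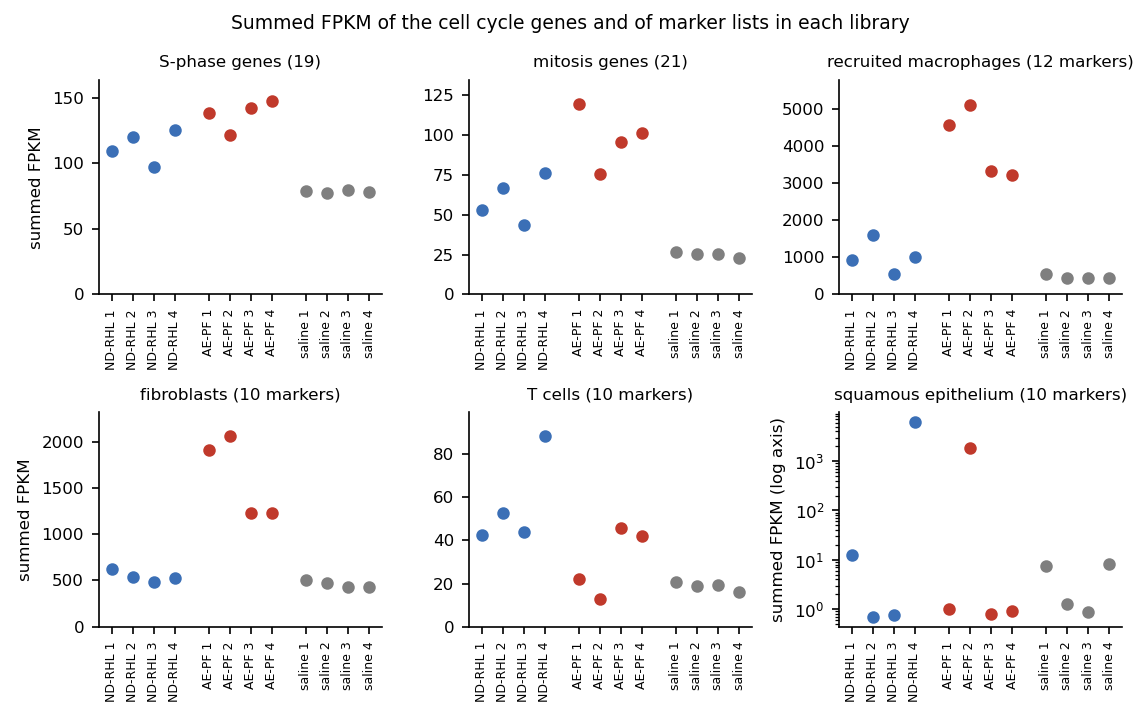
Summed FPKM per library of the 19 S-phase genes, the 21 mitosis genes and 4 marker lists, in ND-RHL (blue), AE-PF (red) and saline (grey) lung, the squamous panel on a log axis. Mitosis sums are 43.6 to 76.1 in ND-RHL, 75.4 to 119.8 in AE-PF and 23.0 to 26.4 in saline libraries. AE-PF library 2 is the lowest of its group in both cell cycle panels and in the T cell panel. It is the highest in the macrophage, fibroblast and squamous panels.

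The third comparison set treated challenged lung against saline lung. Cell cycle genes stood above the saline level: 33 of the 39 tested genes were higher in ND-RHL lung and 0 lower. Of the 26 genes that reached 1 FPKM in every saline library 21 were higher. Of the 9 that reached it in none, which passed the filter through the challenged groups, 8 were higher. All 4 that reached it in some, which also needed challenged libraries to pass, were higher. Of all genes tested 21.9% passed, 13.3% higher and 8.65% lower. In 36 of the 40 genes every ND-RHL library was above every saline library, against 18.1% of all genes. None of the 39 genes was lower at an unadjusted p under 0.05 by limma, nor at an adjusted p under 0.05 by limma-voom. Median ratios were 2.56 over mitosis genes and 1.58 over S-phase genes, against 1.03 over all genes tested. The number of all genes called, 3323 of 15164, fell to 2083 without saline library 1 and 2008 without saline library 2.

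The smallest adjusted p-values were those of Rrm2, Mcm6 and Mcm5. Rrm2 had 5.07, 6.05, 4.02 and 6.54 FPKM in ND-RHL and 1.78, 1.87, 1.59 and 1.30 in saline libraries (3.31-fold; log2 change 1.27 ± 0.13, adjusted p = 0.00019, limma), and Mcm5 5.72, 6.64, 4.83 and 7.05 and 2.85, 2.78, 2.78 and 2.59 (2.20-fold; adjusted p = 0.000796). Both stood clear of saline lung in every library. Mki67 averaged 6.40 ± 2.03 and 2.14 ± 0.168 FPKM in ND-RHL and saline lung (2.99-fold; adjusted p = 0.00146), Top2a stood at 3.35 times, Ccnb1 at 3.42 and Cdk1 at 2.86 times the saline mean. The nucleotide genes Tyms and Tk1 were close to saline lung, at 1.30 and 1.37 times (adjusted p = 0.028 and 0.0449).

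The 6 genes that did not pass were Bub1, Kif23, Mcm4, Cdc6, Ccne2 and E2f1. Ccne2 had 1.48, 1.65, 1.05 and 1.46 FPKM in ND-RHL and 1.52, 1.40, 1.26 and 1.89 in saline libraries, with the ND-RHL mean at 0.928 times the saline mean (log2 change -0.06 ± 0.10, adjusted p = 0.665, limma). It was the only one of the 39 with a negative change, and its sign turned without saline library 4 (log2 change 0.0030) or ND-RHL library 3 (0.011). Bub1 averaged 1.51 ± 0.288 and 1.42 ± 0.202 FPKM in ND-RHL and saline lung (log2 change 0.05 ± 0.12). E2f1 stood at 1.17, Mcm4 at 1.18, Kif23 at 1.53 and Cdc6 at 1.68 times the saline mean, with adjusted p of 0.182, 0.0525, 0.0622 and 0.0701. Without ND-RHL library 3, Kif23 (0.0305), Mcm4 (0.0237) and Cdc6 (0.0242) passed as higher, and without AE-PF library 2 Kif23 (0.0183) and Mcm4 (0.0442). Cenpf, tested with no filter on low values, where 4.11% of genes were higher, had an adjusted p of 0.0607 (limma).

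Of the 33 genes called higher, 32 were tested in every fit that left out 1 library, all but Gins2, and 28 of these kept the call each time. Tk1 did not pass without saline library 1 (0.110), 2 (0.103), 3 (0.0589) or 4 (0.0781), AE-PF library 1 (0.0548) or 3 (0.0578), or ND-RHL library 2 (0.112) or 4 (0.108). Tyms did not pass without saline library 1 (0.0533), 2 (0.0793) or 4 (0.0574), or ND-RHL library 2 (0.0764) or 4 (0.0542). Cdc45 did not pass without saline library 1 (0.0522), nor Pcna without saline library 2 (0.0516). With neither AE-PF library 2 nor ND-RHL library 4 in the fit, 32 genes were higher than in saline lung, with Tyms lost (0.0546), Kif23 gained (0.0410) and Gins2 not tested.

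Immune cell markers were higher in treated than in saline lung as well. Of 12 recruited macrophage markers 10 were higher (summed FPKM 549 to 1603 in ND-RHL and 448 to 547 in saline libraries), of 10 T cell markers 8 (42.4 to 88.3 and 16.2 to 20.7), of 8 B cell markers 5 (84.3 to 173 and 45.1 to 55.3) and of 7 tested natural killer cell markers 5 (41.7 to 85.1 and 20.3 to 28.1). Of 7 tested germinal centre and plasma cell markers 2 were higher and 1 lower, of 10 fibroblast markers 1 and 1, and of 8 transitional epithelial markers 2 and 2. Lower calls were made for 2 of 10 alveolar macrophage, 2 of 8 ciliated and club cell and 1 of 8 endothelial markers. The part of these cells in the level of the cell cycle genes was not tested.

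In 16 of the 40 genes the 3 groups stood apart, with every ND-RHL library above all saline and below all AE-PF libraries, against 4.21% of the 15164 genes tested. These were 10 of the 21 mitosis genes and 6 of the 19 S-phase genes. Among the 16 are Ccnb1, Cdk1, Cenpe, Kif20a, Ccne1 and Gins2, which reached 1 FPKM in no saline library. Aurkb, Tpx2 and Cdc45, which reached it in only some saline libraries, are also among them. All of these genes needed challenged libraries to pass the filter, so their place above saline lung adds no support. Cdk1, Cenpe and Gins2 needed AE-PF libraries, so their place below AE-PF lung adds none either. The 3 comparisons share libraries pairwise, so their results are not independent of each other.

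Further genes of the same pathways were listed by their known roles. Of 50 other replication genes 41 were tested. In AE-PF against saline lung 31 of them rose and 1 fell, Pold3 of DNA polymerase delta, and in ND-RHL against AE-PF lung 12 fell and 0 rose. Clspn, an adaptor of the replication checkpoint, averaged 1.43 ± 0.197 in AE-PF and 0.197 ± 0.0577 FPKM in saline lung (adjusted p = 6.87e-06, limma), and Rfc5, a subunit of the clamp loader, 3.55 ± 0.140 in AE-PF and 1.68 ± 0.120 FPKM in saline lung. In ND-RHL lung Clspn was at 0.759 ± 0.144 FPKM (adjusted p = 0.00225 against AE-PF) and Gins1, another GINS subunit, at 1.71 ± 0.318, against 2.74 ± 0.303 in AE-PF lung (adjusted p = 0.0085). Like Gins2, Clspn reached 1 FPKM in AE-PF libraries alone and had to be high there. Nothing is therefore supported by its calls in either comparison with AE-PF lung. Gmnn, which encodes geminin, the inhibitor of Cdt1, had 7.03 ± 1.30 FPKM in ND-RHL and 5.76 ± 0.274 in AE-PF lung and did not pass in that comparison (0.0911).

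Of 60 other mitosis genes 48 were tested. In AE-PF lung 46 rose and 0 fell, and in ND-RHL against AE-PF lung 34 fell and 2 rose. Racgap1, a cytokinesis regulator, averaged 4.34 ± 0.656 in AE-PF and 1.00 ± 0.124 FPKM in saline lung (adjusted p = 5.49e-06, limma), and Cks1b, a small partner of cyclin-dependent kinases, 11.7 ± 0.415 in AE-PF and 3.58 ± 0.207 FPKM in saline lung. Racgap1 reached 1 FPKM in only some saline libraries, so it needed challenged libraries to pass the filter. Anln, the contractile ring gene, fell to 1.95 ± 0.584 FPKM in ND-RHL lung, against 4.18 ± 0.664 in AE-PF lung (adjusted p = 0.00083), and Smc2, a condensin subunit, to 3.53 ± 0.526, against 5.77 ± 0.547 (adjusted p = 0.000578). The 2 that rose with treatment were Cdc25b, a phosphatase that activates Cdk1, with 9.72 ± 0.507 FPKM in ND-RHL and 6.18 ± 1.58 in AE-PF lung (adjusted p = 0.00351), and Pttg1, which encodes securin, with 15.3 ± 3.16 and 9.87 ± 0.526 (adjusted p = 0.0421). Neither passed in AE-PF against saline lung. Over all genes, the shares to set beside the counts of these and the following lists are the 26.4% higher and 30.2% lower of all genes in AE-PF against saline lung and the 24.3% higher and 17.4% lower in ND-RHL against AE-PF lung.

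All 10 G1 cyclin and kinase genes were tested, of which 6 rose in AE-PF lung and 3 fell in ND-RHL against AE-PF lung. Myc, a transcription factor of growth, averaged 4.83 ± 2.52 in ND-RHL, 13.4 ± 3.93 in AE-PF and 4.10 ± 0.878 FPKM in saline lung, with 15.7, 17.7, 9.96 and 10.1 in AE-PF libraries 1 to 4. Its adjusted p was 0.000702 for AE-PF against saline and 0.00239 for ND-RHL against AE-PF lung (limma). Cdk4, the G1 kinase, averaged 24.4 ± 0.732 in ND-RHL, 29.8 ± 0.941 in AE-PF and 20.98 ± 0.372 FPKM in saline lung, with all 4 ND-RHL libraries below all 4 AE-PF and above all 4 saline libraries. Ccnd1, Cdk2, Cdk6 and Skp2 also rose in AE-PF lung, while Ccnd2, Ccnd3, Cdc25a and Mycn did not pass (0.06, 0.498, 0.0822 and 0.281). Skp2 reached 1 FPKM in no saline library, so it passed the filter through the challenged groups. Ccnd2, a D-type cyclin, also fell with treatment, at 16.5 ± 0.882 FPKM in ND-RHL against 20.4 ± 2.40 in AE-PF lung.

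Of 18 genes that brake the cycle, 11 rose and 3 fell in AE-PF lung, where 26.4% of all genes rose and 30.2% fell. In ND-RHL against AE-PF lung 3 rose and 3 fell, against 24.3% higher and 17.4% lower of all genes. Cdkn2a, whose products p16 and p19 hold back Cdk4 and stabilise p53, had 2.86, 3.07, 2.87 and 2.69 FPKM in AE-PF libraries 1 to 4, against 0.158, 0.184, 0.381 and 0.209 in saline libraries (12.3-fold; adjusted p = 5.67e-06, limma). In ND-RHL libraries it was at 0.750, 1.11, 0.352 and 0.294 FPKM, all below the AE-PF range (adjusted p = 8.70e-05). Outside AE-PF lung Cdkn2a reached 1 FPKM only in ND-RHL library 2. It thus passed the filter through AE-PF lung, and nothing is supported by its calls in these 2 comparisons. Cdkn1a, which encodes the p53 target p21, averaged 36.5 ± 9.15 in ND-RHL, 67.1 ± 1.92 in AE-PF and 24.2 ± 1.99 FPKM in saline lung (adjusted p = 0.000708 for ND-RHL against AE-PF). Cdkn2b rose and fell likewise (17.9 ± 2.93 FPKM in ND-RHL, 26.6 ± 5.02 in AE-PF and 15.2 ± 1.33 in saline lung). The p53 target Ccng1, and Cdkn2c, Cdkn2d, Rb1, Rbl1, Btg1, Wee1 and Fzr1 also rose in AE-PF lung, and none of these 8 passed in ND-RHL against AE-PF lung. Btg2, Gadd45a, Rbl2 and Pkmyt1 did not pass in AE-PF against saline lung.

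Cdkn1b, Cdkn1c and Ccng2 were the brakes that fell with the challenge. Cdkn1b, which encodes p27, had 17.0, 21.3, 23.4 and 22.9 FPKM in AE-PF libraries and 33.6, 34.9, 30.7 and 37.6 in saline libraries (adjusted p = 0.000106, limma). In ND-RHL lung it averaged 31.2 ± 0.724 FPKM, higher than the 21.2 ± 2.93 of AE-PF lung (adjusted p = 0.000937). Cdkn1c, which encodes p57, averaged 7.55 ± 1.33 in ND-RHL, 7.23 ± 1.94 in AE-PF and 12.9 ± 0.628 FPKM in saline lung, with no call for ND-RHL against AE-PF (adjusted p = 0.725). Ccng2, a cyclin G gene, averaged 14.7 ± 0.316 in ND-RHL, 12.8 ± 1.15 in AE-PF and 14.6 ± 0.427 FPKM in saline lung, and rose with treatment. Rbl2, a retinoblastoma family member of the DREAM complex, was the other brake that rose with treatment (8.67 ± 0.638 in ND-RHL and 7.22 ± 0.601 FPKM in AE-PF lung).

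Of 16 listed genes of the E2F, MYB and FOXM1 regulators, 15 were in the table and 13 were tested. In AE-PF lung 6 rose and 5 fell, against 26.4% higher and 30.2% lower of all genes, and in ND-RHL against AE-PF lung 2 rose and 5 fell, against 24.3% and 17.4%. Foxm1, the transcription factor of late cycle genes, had 3.64, 2.71, 3.30 and 2.97 FPKM in AE-PF libraries and 0.874 to 0.935 in saline libraries (adjusted p = 1.23e-05, limma). In ND-RHL libraries it had 1.44, 1.85, 1.08 and 1.94 FPKM (adjusted p = 0.000657 against AE-PF). E2f8 and E2f3 moved the same way (0.780 ± 0.155 and 3.47 ± 0.204 in ND-RHL, 1.34 ± 0.145 and 4.99 ± 0.424 in AE-PF, 0.295 ± 0.0709 and 2.22 ± 0.193 FPKM in saline lung), as did the E2F partner Tfdp1. E2f2 and Lin52, a subunit of MuvB, went the opposite way. E2f2 had 7.46 ± 0.353 FPKM in ND-RHL, 4.45 ± 1.01 in AE-PF and 6.83 ± 0.565 in saline lung, with adjusted p of 0.00133 for ND-RHL against AE-PF and 0.00217 for AE-PF against saline. Lin52 had 6.11 ± 0.643, 4.50 ± 0.278 and 7.11 ± 0.471 FPKM in ND-RHL, AE-PF and saline lung. Foxm1 and E2f8 reached 1 FPKM in no saline library, and E2f8 in no ND-RHL library. E2f8 thus had to be high in AE-PF lung, and nothing is supported by its calls in the comparisons with that group.

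The position of some genes limits how their values can be read. Exons of 11 of the 40 genes overlap those of a gene on the opposite strand, and neither the strand setting nor the handling of reads that match several genes is stated. Besides Gins2 with Gse1, the longest overlap is that of Kif20a with Cdc23, 977 bases. Ube2c overlaps Tnnc2, a fast skeletal muscle troponin, by 144 bases. It had 3.54 FPKM in ND-RHL library 4, the highest ND-RHL value, and 2.75 in AE-PF library 2, the lowest AE-PF value. These are the libraries with the most skeletal muscle RNA. The genome also holds processed pseudogenes of Ccnb1, Ccnb2, Pcna and Tyms, whose reads could be shared with the genes.

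Positions are given for 3 of the genes above, as annotated by GENCODE M21 on GRCm38. Cdk1 (ENSMUSG00000019942) lies on chromosome 10 at 69335146 to 69352938 on the minus strand, Mki67 (ENSMUSG00000031004) on chromosome 7 at 135689784 to 135716361 on the minus strand and Mcm7 (ENSMUSG00000029730) on chromosome 5 at 138164583 to 138172422 on the minus strand.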

How the data were processed

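Lung RNA of 12 libraries, 4 per group, was read from 1 deposited table of FPKM values, computed by the authors as fragments scaled to gene length and to the counted fragments of the library, as the deposited values show. Per the submitters' processing notes, the tools were STAR 2.7.9a, Trim Galore 0.6.6, FastQC, DESeq2 1.30.1 and, from Subread 2.0.1, featureCounts, with the builds GRCm38 and mm10. Their settings are not given in the sources used here. Whole fragments were recovered for 100.0% of the 35599 genes (within 1e-05 fragments), summing to 16151454 to 21665654 per library, while the FPKM scale implies totals of 16152379 to 21667129.

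Log2(FPKM + 1) of the 15164 genes with FPKM 1 in 4 libraries was fitted with limma 3.58.1 in R 4.3.3 (1 coefficient per group, intensity trend, 9 residual degrees of freedom), with Benjamini-Hochberg adjustment over all of them and a 2-sided threshold of 0.05. The fit was tested on simulated data. The 40 genes, the other gene lists and the marker lists were chosen with earlier results of these data known. All 40 are described; among the other pathway genes, those named are all G1 and brake genes, and otherwise the 3 of smallest p in each direction of 2 comparisons, of which examples are given. Gene positions come from GENCODE M21 and promoters from RefSeq. The count of recovered fragments was used only in limma-voom, which called 8605 genes in AE-PF against saline, 6305 in ND-RHL against AE-PF and 3365 in ND-RHL against saline lung. Alternatives covered the pseudocount, the filter, the scaling, weights, a replicate block, the samples fitted and each library left out.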

Additional observations from a re-analysis of the deposited data

Results flagged for a closer look

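In 9 of 120 gene and group combinations, 1 library lay apart from the other 3 by Dixon's criterion for 4 samples (gap over range above 0.829), a criterion that chance meets in about 1 of 20 groups. Among the mitosis genes, Aurkb was low in ND-RHL library 3 (1.50 FPKM), Aurka was high in AE-PF library 1 (4.39), Cdc20 and Kif11 were low in AE-PF library 2 (7.26 and 2.04), Cdc20 was high in saline library 1 (3.48) and Ccnb2 was low in saline library 4 (1.32). Among the S-phase genes, Mcm4 was high in saline library 3 (10.5 FPKM), Mcm7 was high in saline library 1 (6.44) and Mcm6 was low in saline library 4 (6.04).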

How the results depend on the processing

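Of 827 combinations of a gene and an alternative for AE-PF against saline lung, 812 kept their direction and side of the threshold and 15 lost the call. For ND-RHL against AE-PF lung 726 of 827 kept both, 55 lost the call, 45 gained it and 1 reversed, and for ND-RHL against saline lung 783 of 823 kept both, 25 lost it, 11 gained it and 4 reversed. With an FPKM minimum of 5, fewer genes were tested, and 5710 of all genes were called in AE-PF against saline lung. Only 13 of the 40 genes were tested at this minimum. All 13 were called higher in both comparisons with saline lung, and 10 of the 13 were called lower in ND-RHL against AE-PF lung. The number of the 40 genes lower in ND-RHL than AE-PF lung was 20 with no filter or with only these 2 groups fitted, 32 by limma-voom, 33 with equal totals or quantile normalisation and 35 with array weights. Equal totals moved the share of higher calls among all called genes to 63.0%, 37.8% and 67.2% in the 3 comparisons in the order above, against 46.7%, 58.2% and 60.5%, and the median log2 change of all genes to 0.08, -0.04 and 0.05, against -0.03, 0.06 and 0.03; quantile normalisation gave 48.3%, 46.4% and 43.5%, and limma-voom 48.6%, 48.2% and 47.5%. Leaving out 1 library gave 7539 to 8825, 4788 to 6339 and 2008 to 3953 called genes, and 36 to 39 higher, 18 to 31 lower and 30 to 36 higher of the 40 genes. Changes near 0 reversed: Bub1 in ND-RHL against saline lung was -0.039 with quantile normalisation and -0.0017 to 0.13 with 1 library left out, Ccne2 there -0.11 to 0.011, and Mcm7 in ND-RHL against AE-PF lung -0.12 to 0.0053. The cause of these shifts was not tested.

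Libraries of the same number correlated between -0.387 and 0.397 over 12 pairs, 5 of them over 0.1, and 4 of the 12 libraries were closest to their own number. The saline and ND-RHL pairs of libraries 1 to 4 correlated at 0.397, 0.188, 0.114 and 0.173, and the other pairs between -0.387 and 0.339. These values cannot decide whether the numbers pair the samples. With the number as a replicate block, 38, 25 and 31 of the 40 genes were called, and 8471, 6061 and 2916 of all genes. At 13 to 32 fragments in saline libraries, Gins2 is the gene most limited by depth.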
